A study of Mus musculus with 12 samples.

Results

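A set of 23 genes stood away from the vehicle level in MLL-AF9 leukaemia cells both 3 and 10 days after induction chemotherapy, 12 of them higher and 11 lower. They were chosen by 3 conditions on the deposited FPKM (fragments scaled to the library's mapped total and to transcript length, so that levels of different genes can be compared). The mean had to reach 5 FPKM in at least 1 group. All 7 libraries from treated mice had to lie above every vehicle library, or all 7 below. The mean had to differ from vehicle by at least 1.5-fold at both times, with 1 added to each mean FPKM. Of 24881 gene entries, 8115 reached the level with an eligible symbol. The 23 members made up 0.283% of these, the higher ones 0.148% and the lower ones 0.136%. Because the same values chose the genes, their differences from vehicle are given as a description without a test.

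GFP-positive leukaemia cells from the bone marrow were sorted in 12 mice, each giving 1 library, and the cells of all groups carried the MLL-AF9 transgene. Vehicle-treated mice formed the first group (n = 5). Mice given doxorubicin with cytarabine were sampled 3 days after treatment ended, a group called iCT in the labels (n = 3), or 10 days after it, the group called relapse (n = 4). Mouse strain, age, dose, the time at which vehicle mice were sampled, the promoter behind the transgene and the number of leukaemia clones are not stated in the labels. No library followed a mouse over time, so day 3 and day 10 are different animals.

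Doxorubicin poisons topoisomerase and cytarabine is a nucleoside analogue that blocks DNA synthesis, so both damage DNA in dividing cells and activate p53, a transcription factor that induces arrest, repair and death genes. MLL-AF9 is a fusion oncoprotein that holds myeloid progenitors in a self-renewing state through the Hoxa and Meis1 genes. Leukaemia cells of this kind resemble granulocyte-monocyte progenitors and carry some monocyte genes, among them the Ly6C surface proteins.

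The 4 promoter sequences below belong to 2 higher and 2 lower members, and they show how unlike these genes are in base composition. Phlda3 and Cgnl1 were the higher members that met the rule under every setting tried, and Ly6c2 and Ly6c1 are neighbouring lower members with the highest levels. Each sequence is the 250 bases before the transcription start, 5′ to 3′, from RefSeq on GRCm38.p6. In Phlda3 (chr1:135765835-135766084, plus strand) and Cgnl1 (chr9:71771603-71771852, minus strand), capitals mark CG dinucleotides. In Ly6c2 (chr15:75111938-75112187, minus strand) and Ly6c1 (chr15:75048838-75049087, minus strand), capitals mark the longest run of bases that both share.

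Phlda3: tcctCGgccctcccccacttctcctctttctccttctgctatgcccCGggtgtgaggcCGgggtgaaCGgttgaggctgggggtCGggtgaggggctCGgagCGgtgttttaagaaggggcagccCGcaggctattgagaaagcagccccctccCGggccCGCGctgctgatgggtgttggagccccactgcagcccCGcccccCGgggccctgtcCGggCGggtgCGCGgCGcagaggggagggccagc
Cgnl1: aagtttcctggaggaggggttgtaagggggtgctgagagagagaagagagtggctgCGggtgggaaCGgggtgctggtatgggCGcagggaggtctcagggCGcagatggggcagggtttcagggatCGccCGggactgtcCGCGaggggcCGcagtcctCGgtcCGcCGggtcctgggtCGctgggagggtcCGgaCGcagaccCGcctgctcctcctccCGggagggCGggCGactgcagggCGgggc
Ly6c2: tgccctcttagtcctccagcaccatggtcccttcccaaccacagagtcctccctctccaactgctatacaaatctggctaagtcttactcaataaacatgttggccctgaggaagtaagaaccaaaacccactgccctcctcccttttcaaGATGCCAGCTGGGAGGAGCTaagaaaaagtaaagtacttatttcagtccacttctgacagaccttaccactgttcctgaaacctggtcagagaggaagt
Ly6c1: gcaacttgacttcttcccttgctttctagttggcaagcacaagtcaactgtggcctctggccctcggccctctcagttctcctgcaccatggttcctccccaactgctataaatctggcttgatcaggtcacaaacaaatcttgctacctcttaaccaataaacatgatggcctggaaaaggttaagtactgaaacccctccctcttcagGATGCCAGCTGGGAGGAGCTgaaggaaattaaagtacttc

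Phlda3 held 18 CG dinucleotides in this window and Cgnl1 held 20. Ly6c2 held 0 and Ly6c1 held 1. The run shared by the 2 Ly6c promoters was 20 bases long and lay 99 to 80 bases before the start in Ly6c2 and 40 to 21 before it in Ly6c1.

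Depth was uneven. The confidence intervals deposited with the FPKM implied 361914 fragments in iCT mouse 1 and 1225254 to 8359793 in the other 11 libraries, and 10479 genes were above 0 in that library against 12439 to 14580. Genes listed for leukaemia cell identity, not all of them particular to such cells, were present in all 12 libraries. Among them were Ptprc (28 to 45.3 FPKM), Spi1 (226 to 344), Mpo (1807 to 3764), Hoxa9 (41.7 to 75.8), Kit (5.6 to 39.4) and Meis1 (8.45 to 23.8). Among markers of other cells, Cd3e of T cells and Cdh5 of endothelium stayed under 1 FPKM in every library, but others did not. The globin Hbb-b1 was at 4.36 to 99.4 FPKM in vehicle, 0 to 2.45 in iCT and 14.2 to 42.7 in relapse, and summed erythroid genes were at 25.1 to 514, 24.2 to 33.3 and 77.3 to 221. Summed stromal and endothelial genes were at 119 to 184, 185 to 212 and 112 to 163 FPKM, with Vcam1 at 42.2 to 94, 45.4 to 47.5 and 34.3 to 42.8. Adipoq of fat cells reached 11.1 FPKM in iCT, 0.408 in vehicle and 0.481 in relapse. Jchain of plasma cells was at 0 to 10.8 FPKM in vehicle, 10.1 to 13.9 in iCT and 1.82 to 7.01 in relapse. Summed osteoclast genes were higher at day 3 (355 to 1177 FPKM) than in vehicle (95.2 to 170.3) or relapse (148 to 269.8), and summed macrophage genes were 297 to 465, 197 to 259 and 138 to 171. Summed genes of mature neutrophils were 25651 to 28797 at day 3, 8895 to 18695 in vehicle and 8981 to 20785 in relapse. The part of such cells in the members' values was not tested. In bulk libraries, fewer cells of a type and less RNA per cell cannot be told apart.

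Complete separation without regard to size was met by 180 genes (2.22%), 82 higher (1.01%) and 98 lower (1.21%). Of these, 157 missed the fold limit, 73 of them only at day 10, 3 only at day 3 and 81 at both times. Every one of the 23 members was displaced more at day 3 than at day 10, as were 142 of the 157 separated genes under the limit. The log2 ratio at day 10 was 33.7% to 92.7% of that at day 3 among higher members (median 69.3%) and 34.5% to 76.8% among lower members (median 54.7%).

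**Figure D1:**
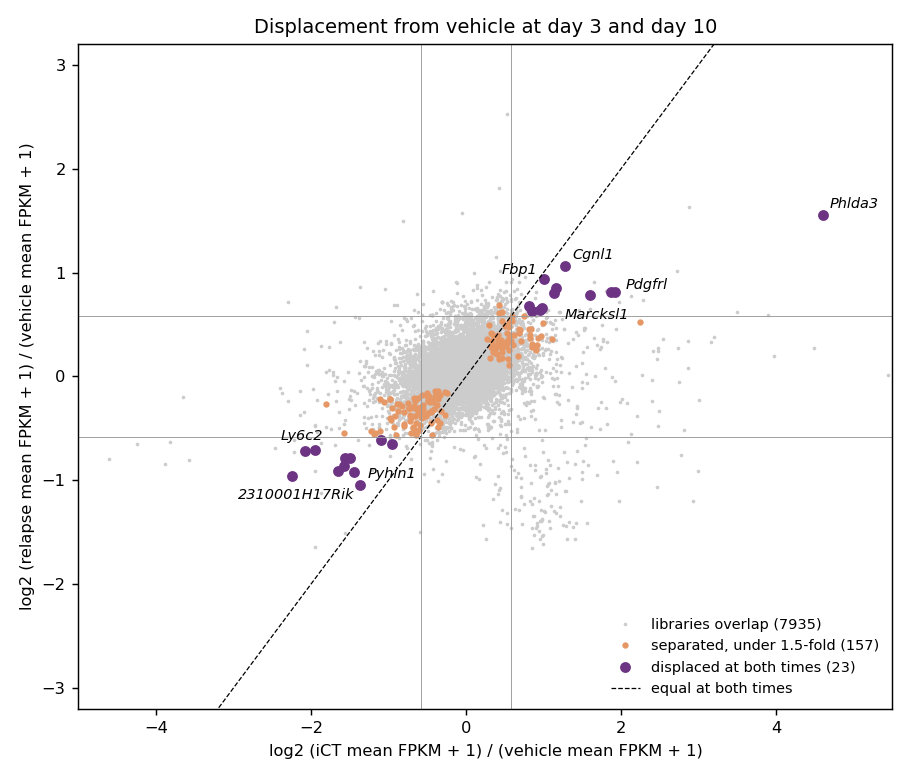
Each point is 1 of the 8115 genes; the x axis is the log2 ratio of the iCT to the vehicle mean FPKM + 1 and the y axis the same for relapse. Purple points are the 23 members, orange points the 157 separated genes under 1.5-fold and grey points the 7935 genes whose libraries overlap; solid grey lines mark 1.5-fold, the dashed line marks equal ratios, and 6 genes, none of them members, lie outside the axes. Phlda3 sits far to the right at 4.60 and 1.55, and every member lies on the day 3 side of the dashed line.

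Among the higher members, the p53 target was the most displaced. Phlda3, a p53-induced protein that competes with AKT for membrane lipids (chromosome 1, 135766085 to 135769134), was at 0.111, 0.295, 0.577, 0.642 and 0.31 FPKM in vehicle mice 1 to 5. It was at 39.9, 24 and 34 FPKM in iCT mice 1 to 3 and at 6.93, 1.49, 1.96 and 1.88 FPKM in relapse mice 1 to 4. The gene was thus almost silent in every vehicle mouse, high in all iCT mice and low but present in all relapse mice, with relapse mouse 1 well above its group and no overlap among the groups. Group means were 0.387 ± 0.219 FPKM (SD, n = 5), 32.6 ± 8.02 (n = 3) and 3.06 ± 2.58 (n = 4), or ratios to vehicle of 24.3-fold and 2.93-fold with 1 added to each mean.

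Higher members also included enzymes of fuel metabolism. Fbp1, the fructose bisphosphatase that drives gluconeogenesis, was at 8.46, 10.2, 3.43, 6.87 and 5.23 FPKM in vehicle mice. It stood at 15.1, 14.2 and 15.1 FPKM in iCT mice and at 15, 14.5, 13.2 and 13.4 FPKM in relapse mice. The treated mice formed a narrow band at both times while the vehicle mice were spread, and this was the member with the least distance between the times (log2 ratios of 1.01 and 0.94). Cpt1a, the carnitine palmitoyltransferase that admits long-chain fatty acids to mitochondria, was at 16.7, 15.7, 12.5, 14.2 and 12.9 FPKM in vehicle. Its level was 47.5, 22.3 and 28.5 FPKM in iCT and 18.8, 36.9, 23.1 and 24.6 FPKM in relapse. The highest Cpt1a value came from the shallow library of iCT mouse 1, and relapse mouse 1 lay close to vehicle mouse 1.

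Hist1h2ag and Hist1h2ah encode the core histone H2A and start 7306 bases apart in the histone cluster of chromosome 13. Hist1h2ag was at 32.8 to 39 FPKM in vehicle mice, at 82.8, 76.8 and 57.2 FPKM in iCT mice and at 42.9, 75.4, 69.7 and 41.8 FPKM in relapse mice. For Hist1h2ah the levels were 17.9 to 21.6 FPKM in vehicle, 46.7, 38.9 and 31.9 FPKM in iCT and 22.3, 40.4, 38.8 and 24.6 FPKM in relapse. In both genes relapse mice 2 and 3 were as high as iCT mice, while relapse mice 1 and 4 lay just above vehicle. The longest annotated transcripts of the pair are 97.5% identical over 403 aligned bases, so how reads were divided between these and other H2A copies is uncertain. Without relapse mouse 2 or without relapse mouse 3 neither gene met the rule. All 14 Hist1h2a entries that reached the level had mean ratios above vehicle at both times, with log2 values of 0.57 to 1.77 at day 3 and 0.28 to 0.94 at day 10. Of the 14, 9 were at least 1.5-fold higher at both times and 2, the members, were separated. Most replication-dependent histone mRNAs lack a poly(A) tail, and the RNA selection used for the libraries is not given.

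Junction, cytoskeleton and signalling genes were also among the higher members. Cgnl1, the junction protein paracingulin (chromosome 9, 71626507 to 71771602), was at 4.07, 3.87, 4.46, 6.2 and 4.7 FPKM in vehicle. It was at 18.7, 7.77 and 11.6 FPKM in iCT and at 14, 8.09, 10.1 and 11 FPKM in relapse. The relapse values lay within the wider range of the iCT mice, all above the vehicle mice, at 2.42-fold and 2.09-fold of vehicle. Marcksl1, an actin-regulating protein of the MARCKS family, was at 13.8 to 20.8 FPKM in vehicle, at 43, 51.2 and 59.3 FPKM in iCT and at 35.1, 24.3, 32.9 and 22.3 FPKM in relapse. Relapse mice stood between the other groups, mice 2 and 4 near vehicle mouse 4. Sipa1, a GTPase-activating protein for Rap, was at 20 to 29.4 FPKM in vehicle, at 50.2, 33.7 and 53.9 FPKM in iCT and at 41.9, 38, 43.7 and 32.6 FPKM in relapse. Its relapse values fell within the span of the iCT mice except for mouse 4, just below it.

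Receptor-related genes were low throughout. Pdgfrl, a secreted protein similar to the receptor of platelet-derived growth factor, was at 1.65 to 2.21 FPKM in vehicle, at 12.6, 8.39 and 7.84 FPKM in iCT and at 5.41, 4.18, 2.73 and 3.39 FPKM in relapse. The 3 groups did not overlap. Galr3, a receptor of the neuropeptide galanin, was at 0.691, 1.07, 0, 1.21 and 1.52 FPKM in vehicle, at 13, 2.61 and 2.15 FPKM in iCT and at 2.04, 2.13, 2.95 and 2.18 FPKM in relapse. Galr3 reached the level limit only through the shallow iCT mouse 1, whose value rested on 4.54 implied fragments, and without that library the gene left the set. It also overlaps Gcat on the same strand. Laptm4b, a lysosomal membrane protein, was at 2.48 to 3.83 FPKM in vehicle, at 5.17 to 7.95 FPKM in iCT and at 4.63 to 6.62 FPKM in relapse. Its paralogue Laptm4a was separated in the opposite direction, with means of 51.5, 41 and 40.7 FPKM, but missed the fold limit.

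**Figure D2:**
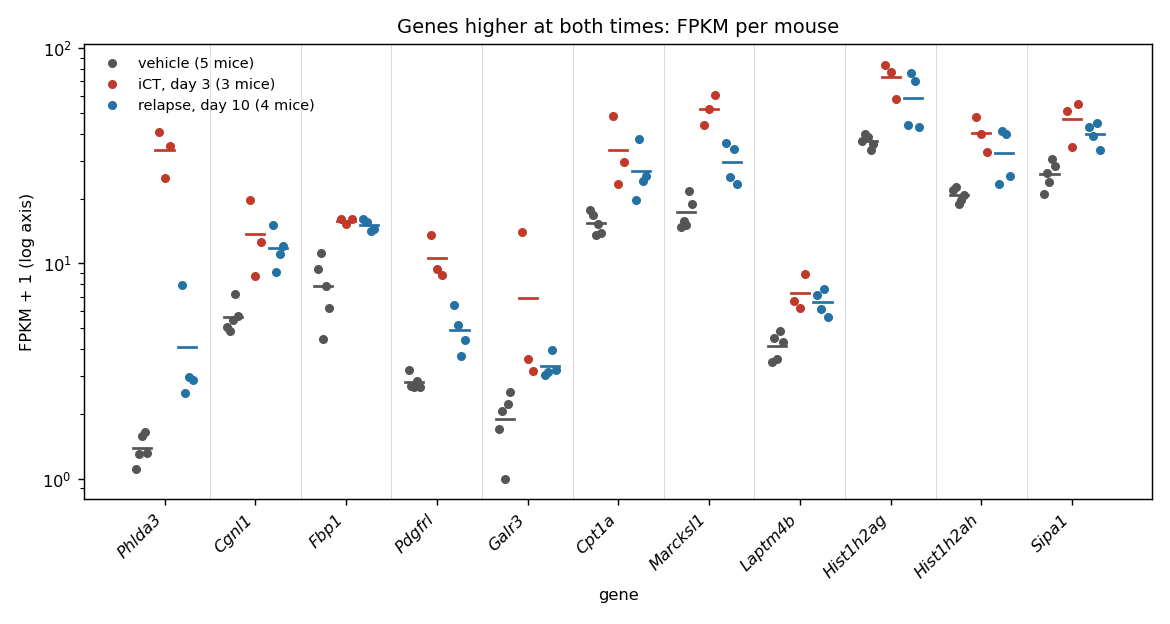
FPKM + 1 on a log axis for 11 of the 12 higher members, with 1 point per mouse (vehicle grey, iCT red, relapse blue) and a bar at the group mean. All 7 treated points of each gene lie above the 5 vehicle points, narrowly for Hist1h2ah and widely for Phlda3, whose relapse points sit between 1.49 and 6.93 FPKM.

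The lower members included the set's most abundant transcripts. Ly6c2, which encodes the Ly6C surface protein of monocytes and their progenitors (chromosome 15, 75108161 to 75111949), was at 2189.8, 2225, 2191, 2283 and 2065 FPKM in vehicle mice. It was at 502, 579 and 480.2 FPKM in iCT mice and at 844, 1657, 915 and 1922 FPKM in relapse mice. Vehicle mice were nearly equal, iCT mice were uniformly low, and relapse mice split, with 2 and 4 near vehicle and 1 and 3 nearer to iCT. Ly6c1, which encodes a near-identical protein and starts 63112 bases away, was at 553 to 602 FPKM in vehicle. Its levels were 184, 151 and 119 FPKM in iCT and 237, 434, 230.1 and 532 FPKM in relapse. Relapse mice 2 and 4 were again high and mice 1 and 3 low. The longest transcripts of both are 87.5% identical over 834 aligned bases, so reads may have been shared between them. Their 300-base promoter windows are 77.6% identical over 232 aligned bases. Removal of relapse mouse 1 or of relapse mouse 3 took both genes below 1.5-fold at day 10.

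Other surface and innate immune genes were lower too. Fgl2, a fibrinogen-like protein made by myeloid cells, was at 48.2, 49.5, 55.5, 45.9 and 45.3 FPKM in vehicle. Values of 17.5, 16.3 and 13.8 FPKM were measured in iCT and of 27.1, 25.5, 22 and 37 FPKM in relapse. The 3 groups did not overlap, with relapse between the others. Pyhin1, named Ifi209 in current RefSeq and a member of the interferon-inducible PYHIN family of DNA sensors, was at 8.82, 8.2, 6.35, 6.42 and 8.32 FPKM in vehicle. In iCT it was at 1.08, 3.58 and 2.39 FPKM and in relapse at 2.24, 3.81, 1.35 and 5.28 FPKM. The treated groups overlapped, and relapse mouse 4 came nearest to vehicle. The family member Mndal had means of 6.1, 1.19 and 3.5 FPKM without complete separation, and Aim2 had means of 6.95, 6.42 and 8.5 FPKM. S100a10, an annexin-binding S100 protein, was at 81, 116, 91.3, 74.2 and 74.3 FPKM in vehicle, at 26.8, 38.2 and 29.3 FPKM in iCT and at 20.3, 73.9, 38.7 and 49.9 FPKM in relapse. Relapse mouse 2 was level with vehicle mouse 4, and relapse mouse 1 was below every iCT mouse. S100a10 was the only 1 of 8 S100 genes at the level that was separated.

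Enzymes of lysosomes and lipids formed the next group. Ctsh, the aminopeptidase cathepsin H, was at 73.5, 63.6, 50.4, 45.5 and 50.9 FPKM in vehicle. It was at 11.8, 19.4 and 24.2 FPKM in iCT and at 18.7, 39.5, 27.4 and 37.8 FPKM in relapse. The relapse mice 2 and 4 were again the nearer to vehicle. Smpdl3a, a secreted phosphodiesterase related to acid sphingomyelinase, was at 203, 168, 176, 147 and 178 FPKM in vehicle. Levels in iCT were 46.9, 72.5 and 64.2 FPKM and in relapse 92.4, 103, 90.6 and 118 FPKM. The groups formed 3 separate bands. Mogat2, a monoacylglycerol acyltransferase of triglyceride synthesis, was at 15.7 to 32 FPKM in vehicle, listed at 0 in iCT mouse 1, at 10.4 and 8.83 FPKM in iCT mice 2 and 3 and at 8.22 to 13.9 FPKM in relapse. Apart from the shallow library, the iCT values lay within the range of the relapse mice, most of which were above them.

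Little-studied transcripts completed the lower members. The long noncoding RNA 2310001H17Rik was at 8.12 to 15.7 FPKM in vehicle, listed at 0 in iCT mouse 1, at 3.17 and 1.47 FPKM in the other iCT mice and at 3.62, 7.11, 6.32 and 3.9 FPKM in relapse. Relapse mice all lay above the iCT mice. The gene 5730508B09Rik (Fam241a) was at 9.62 to 17.2 FPKM in vehicle, at 1.72, 9.14 and 6.54 FPKM in iCT and at 6.48 to 7.98 FPKM in relapse. The gene 2310009A05Rik (Pigbos1, a mitochondrial microprotein) was at 47.5 to 65.5 FPKM in vehicle, at 16.6, 44.7 and 18 FPKM in iCT and at 33.2 to 40 FPKM in relapse. In both, iCT mouse 2 was the treated library nearest to vehicle. Pigb overlaps the locus of 2310009A05Rik on the other strand, as Ccdc146 does that of Fgl2, and in all 10 of the 23 members overlap another annotated gene. Overlap was taken over whole gene spans, introns included. The strand setting of the counting is not given, so how far such pairs share reads is not known.

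**Figure D3:**
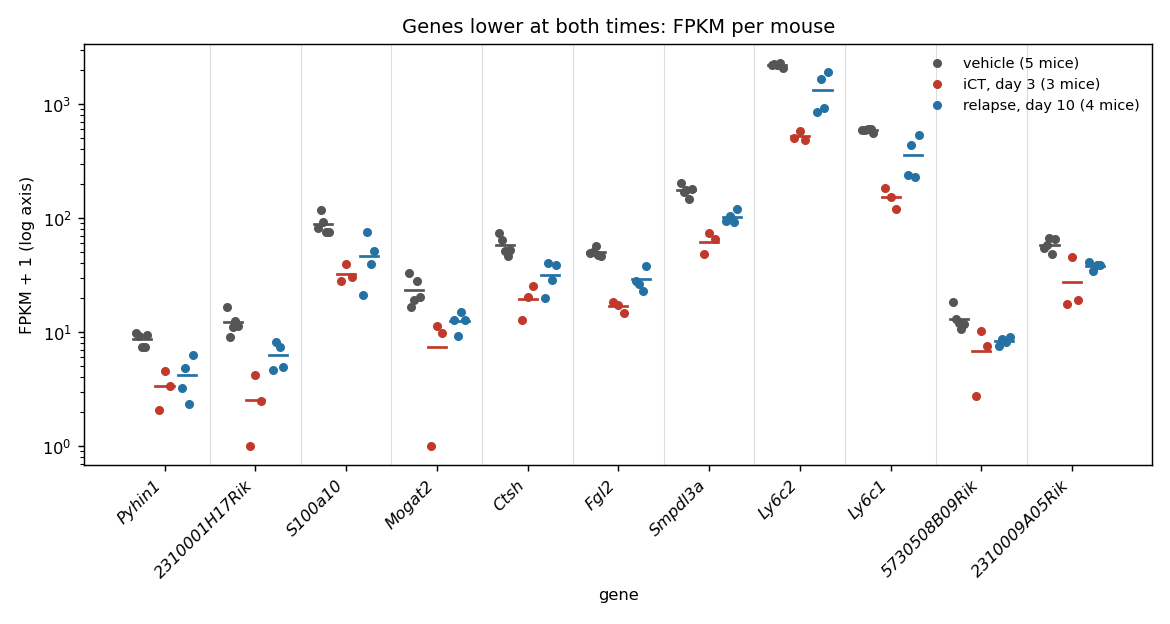
FPKM + 1 on a log axis for the 11 lower members, with 1 point per mouse (vehicle grey, iCT red, relapse blue) and a bar at the group mean. The treated points of each gene lie below all vehicle points; relapse mice 2 and 4 of Ly6c2, at 1657 and 1922 FPKM, reach close to the vehicle mice, and the points at 1 are values listed at 0.

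Separation rested on small gaps. Between the closest treated and vehicle libraries the ratio was 1.03 to 2.33 in higher members (median 1.21) and 1 to 1.25 in lower members (median 1.13). The deposited 95% intervals of those closest libraries were apart in 3 of 23 genes, namely Fgl2, Smpdl3a and Ly6c2, and in 0 of the 12 higher members. In 10 of 12 higher and 9 of 11 lower members the closest treated library came from a relapse mouse, and in the remaining 4, among them Cgnl1, 5730508B09Rik and 2310009A05Rik, it was iCT mouse 2. The shallow iCT mouse 1 was the most extreme treated library in 8 of 12 higher and 7 of 11 lower members and the closest in 0. Members' values there rested on 4 to 79.1 implied fragments in higher genes and 0 to 124 in lower ones. Those fragments cover counting error only.

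The groups at day 10 and day 3 were compared directly with limma on log2(FPKM + 1), the group contrast that the rule did not set. The rule did use the levels of both groups, so the members' counts are read only against the share of all genes. Across 11019 genes tested, 1071 (9.72%) differed, 729 higher (6.62%) and 342 lower (3.1%) in relapse, and the median difference of all genes was 0.16. That median was 0.06 after median-of-ratios scaling, 0.02 after quantile normalization and 0.00 with length and GC trends taken out, and the calls then split into 490 higher and 514 lower, 431 and 420, and 457 and 624. Of the 23 members 8 passed: 3 of the 12 higher members were lower in relapse, and 5 of the 11 lower members were higher in relapse. An unadjusted p under 0.05 was reached by 3 higher and 7 lower members and by 29% of all genes. All 8 differences pointed toward the vehicle level, which adds nothing to the larger day 3 displacement of all 23 members given above. Relative to the median of all genes these 8 differences ran from -3.35 for Phlda3 to 1.32 for 2310001H17Rik.

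The higher members that fell between the times were Phlda3, Pdgfrl and Marcksl1. By limma with Benjamini-Hochberg adjustment, Phlda3 was lower in relapse by a log2 difference of -3.19 (SE 0.35, adjusted p = 0.000556). For Pdgfrl the difference was -1.11 (SE 0.21, adjusted p = 0.00995) and for Marcksl1 -0.83 (SE 0.19, adjusted p = 0.0196). In all 3 every relapse mouse lay below every iCT mouse. Phlda3 and Pdgfrl reached the level limit only through iCT, with relapse means of 3.06 and 3.93 FPKM. The rule thus favoured a fall in these 2 genes. Complete separation also favours genes with little spread among vehicle mice, and that spread enters the shared error of the fit. For Ly6c2 the SD was 3.65% of the mean in vehicle and 40.3% in relapse. The adjusted p of all 8 genes is therefore given as a description. Of the lower members, Ly6c2 was higher in relapse by 1.27 (SE 0.24, adjusted p = 0.00854) and Ly6c1 by 1.16 (SE 0.26, adjusted p = 0.0167). Fgl2 rose by 0.76 (SE 0.16, adjusted p = 0.0134) and Smpdl3a by 0.73 (SE 0.15, adjusted p = 0.0139). The noncoding 2310001H17Rik rose by 1.48 (SE 0.40, adjusted p = 0.0358), a call that was lost in 14 of 23 settings (adjusted p of 0.0501 to 0.134). Among these were the omission of iCT mouse 1, where it was listed at 0 (0.92, adjusted p = 0.0833), of vehicle mouse 3, 4 or 5 or of any 1 relapse mouse, and both scalings. The Marcksl1 call was lost without relapse mouse 2 (adjusted p = 0.0578) or without relapse mouse 4 (adjusted p = 0.0575). A fit of the iCT and relapse libraries alone left the vehicle mice out of the shared error. In that fit Phlda3 was the only 1 of the 8 that passed, and the adjusted p of the other 7 was 0.0641 to 0.134.

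The other 15 members did not pass, which leaves room for differences of the size given by their 95% intervals. For Fbp1 the difference was -0.08 (interval -0.62 to 0.47), for Laptm4b -0.12 (-0.54 to 0.29) and for Cgnl1 -0.16 (-0.72 to 0.40). Sipa1 differed by -0.21 (-0.59 to 0.18) and Cpt1a by -0.30 (-0.84 to 0.24). The histone genes Hist1h2ag and Hist1h2ah differed by -0.36 (-0.80 to 0.09) and -0.34 (-0.78 to 0.11). The intervals of these 7 genes did not reach a fall of 1 log2 unit. Galr3 differed by -0.72 (-1.70 to 0.27), and by -0.03 without iCT mouse 1. Among lower members Pyhin1 differed by 0.29 (-0.42 to 1.01) and by -0.08 after quantile normalization, S100a10 by 0.40 (-0.30 to 1.11) and 5730508B09Rik by 0.49 (-0.27 to 1.25). Ctsh at 0.71 (0.11 to 1.31) and 2310009A05Rik at 0.62 (0.05 to 1.19) had intervals above 0 before adjustment but adjusted p of 0.119 and 0.145. Mogat2 differed by 1.34 (-0.05 to 2.74), and by 0.21 without iCT mouse 1.

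**Figure D4:**
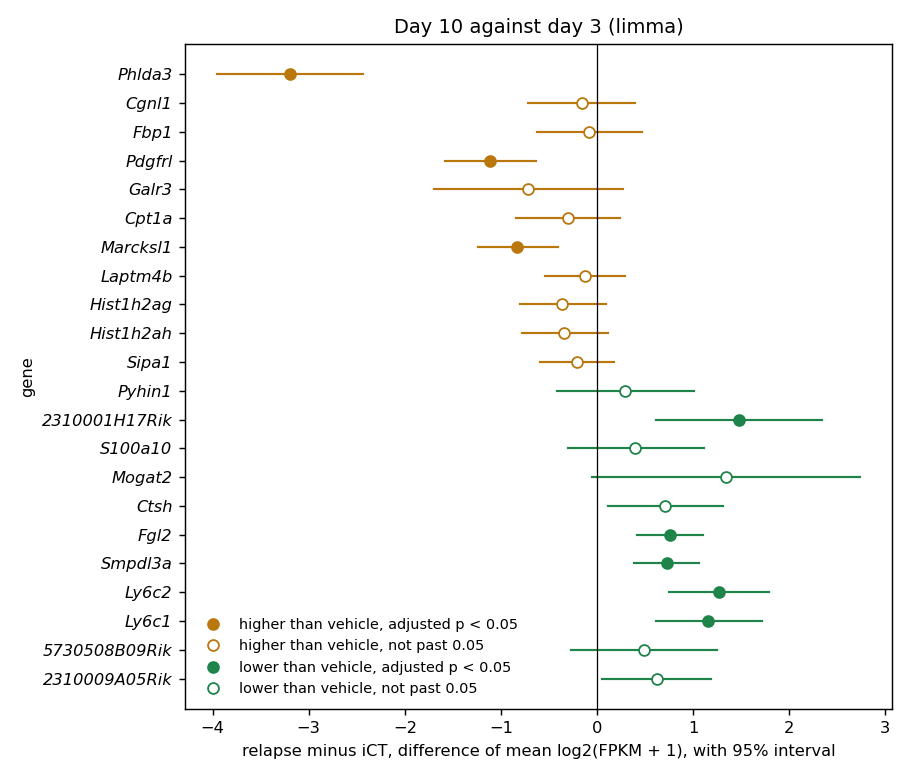
Difference of mean log2(FPKM + 1), relapse minus iCT, for 22 of the 23 members with the 95% limma interval; brown marks higher and green lower members, and filled points passed an adjusted p of 0.05. The 8 filled points run from -3.19 for Phlda3 to 1.48 for 2310001H17Rik, and the brown points lie left of 0 and the green points right of it.

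Without overlap between iCT and relapse mice there were 8 members, 3 higher and 5 lower, the same 8 genes that passed limma. Over the 8115 genes at the level, 23.9% had no such overlap.

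Of 44 gene lists, 7 held a member, and their other genes are given beside the shares of all genes. By limma, 9.62% of the 11019 genes differed between iCT and vehicle, 3.31% higher and 6.31% lower in iCT, and 29.8% had an unadjusted p under 0.05. Between relapse and vehicle none of the 11019 passed (0%), while 1604 (14.6%) had an unadjusted p under 0.05 and 971 passed with array weights. The counts below are read against these shares and those of relapse against iCT above. Of the 32 other p53 targets tested, 10 were higher and 1 lower at day 3, 0 passed at day 10, and 8 were lower and 0 higher in relapse than in iCT. The 2 of these with the smallest p, a choice made after their values were seen, were Cdkn1a and Zmat3. Cdkn1a, the cell-cycle inhibitor p21, had means of 15.4 ± 3.4, 89.9 ± 16.7 and 18.4 ± 3.72 FPKM in vehicle, iCT and relapse. Zmat3, an RNA-binding p53 target, had means of 0.462, 5.91 and 1.1 FPKM. Zmat3 and Gtse1, another p53 target, were separated at both times but under 1.5-fold at day 10 with 1 added to each mean. Their log2 ratios were then 0.52 and 0.31, and the added 1 shrinks the ratio of a gene as low as Zmat3. At day 10 Phlda3 was the p53 target that met the rule, while the relapse mice overlapped vehicle for Cdkn1a.

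The monocyte list held Ly6c1 and Ly6c2. Among its 27 other genes 4 were higher and 7 lower at day 3, and 6 were higher and 5 lower in relapse than in iCT. Summed over the list, levels were 3873 to 4294 FPKM in vehicle, 1661 to 1728 in iCT and 2187 to 3831 in relapse. Without the Ly6c genes the sums were 1209 to 1477, 931 to 1093 and 1106 to 1393 FPKM. Irf8 (means of 42.7, 9.27 and 51.6 FPKM), the transcription factor of monocyte fate, and Ly86 (59.1, 3.8 and 51.4 FPKM), a partner of a Toll-like receptor homologue, had the smallest p in relapse against iCT. Both had relapse means close to vehicle. The relapse mice were spread, with an SD of 18.9 FPKM for Irf8 and 28.2 for Ly86, against 12.4 and 8.02 in vehicle.

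The other lists described held 1 member each. For fatty acid uptake and oxidation, beside Cpt1a, 3 of 32 other genes were higher and 2 lower at day 3, and 2 were higher and 2 lower in relapse than in iCT. For glycolysis and gluconeogenesis, beside Fbp1, 1 of 35 was higher and 5 lower at day 3, and 8 were higher and 1 lower in relapse than in iCT. For lysosomal hydrolases, beside Ctsh, 5 of 42 were higher and 11 lower at day 3, and 14 were higher and 3 lower in relapse than in iCT. Among integrin and adhesion genes, beside Cgnl1, 0 of 32 were higher and 6 lower at day 3, with 8 higher and 1 lower in relapse than in iCT.

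Across the 12 libraries the members most like Phlda3 in log2(FPKM + 1) were Pdgfrl (Pearson r = 0.96), Marcksl1 (0.93) and Sipa1 (0.79). Those most like Pyhin1 were Smpdl3a (0.90), Ctsh (0.90) and Ly6c2 (0.85). These values describe libraries that share the group differences the rule selected.

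Base composition differed between the directions. GC content of the transcripts was 47.7% to 67.9% (median 58.3%) in higher members and 40.3% to 56.5% (median 46.4%) in lower members, against a median of 50.9% in all eligible genes. Genes at large moved with GC content as well. With genes split into 3 equal classes from low to high GC content, the median log2 difference from vehicle was -0.044, 0.067 and 0.16 in relapse and -0.19, -0.06 and 0.0071 in iCT. After trends on GC content and transcript length were removed from each library, 14 of the 23 genes still met the rule, and all 23 kept their direction at both times. Among the genes that no longer met it were Galr3, Cpt1a, Marcksl1, Hist1h2ag, Hist1h2ah, Sipa1, S100a10 and 5730508B09Rik.

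RefSeq listed promoters for 15 members, in windows from 250 bases before to 50 after the start. CG dinucleotides numbered 6 to 30 in 8 higher members (median 19) and 0 to 27 in 7 lower members (median 7), with a median of 7 over all 32851 listed promoters. The CCAAT box (letters CCAAT, either strand) was found in 6 of 8 higher and 4 of 7 lower members and in 37.4% of all promoters. Hist1h2ag held 5 copies, 178 to 80 bases before its start, and Hist1h2ah held 3. The TATA box (TATAAA, either strand) was found in Hist1h2ah, Pyhin1 and Ly6c1 and in 13.6% of all promoters. The decamer consensus of p53, which reads the same on both strands, was found in 2310001H17Rik, 22 bases after its start. It was found in 0 of 8 higher members and in 8.36% of all promoters. These are matches of letters in a short window.

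At the limit of the rule, the members just inside were Sipa1, Hist1h2ah and Hist1h2ag, with day 10 ratios of 1.542, 1.562 and 1.58. Just outside were Pdcd11 (1.497), Rrbp1 (1.496) and Acin1 (1.449). On the lower side 2310009A05Rik (1.532-fold lower), 5730508B09Rik (1.574) and Ly6c1 (1.634) were just inside, and Mgst1 (1.479), Mplkip (1.479) and Mcee (1.468) just outside.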

How the data were processed

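RNA-seq was made from 12 sorted leukaemia samples, grouped by their titles. The authors deposited gene tables in FPKM with 95% interval bounds, per the file headers, for which the submitters' processing notes name STAR and Cufflinks. The same notes name mm9, but 99.4% of 23028 symbols overlapped the GRCm38 gene of that name, so coordinates are GRCm38. How multi-mapped reads, strand and gene models were handled is not given in the sources used here. FPKM moves when abundant genes change. The fragments behind a value were taken as (2 FPKM / upper arm of the interval) squared.

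Entries with a failed estimate (2) were left out, as were symbols starting with Mir, Snor or Gm plus a digit, which removed 1 gene that otherwise met the rule. Tests used limma 3.58.1 (R 4.3.3) on log2(FPKM + 1), for genes at 1 FPKM or more in at least 3 libraries, with a variance trend, 1 fit over all 12 libraries and Benjamini-Hochberg adjustment at 0.05 over 11019 genes. Fold changes understate changes of low genes.

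The members and the 44 gene lists were chosen with earlier results of these data known. Of the 23 members 1 is not reported here by name, and the other 22 are; list examples are the 2 genes with the smallest p in relapse against iCT. Alternatives were pseudocounts of 0.1 and 0.5, other filters, level and fold limits, median-of-ratios and quantile scaling, no variance trend, a replicate block, array weights by statmod 1.5.0, iCT and relapse alone and the omission of each library. Removal of length and GC trends was added after seeing the data.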

Additional observations from a re-analysis of the deposited data

Results flagged for a closer look

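Of 46 groups of 4 or 5 mice examined over the 23 members, 2 held a mouse far from the others by Dixon's gap criterion, and chance gives about 1 in 20. Phlda3 stood at 6.93 FPKM in relapse mouse 1, against 1.49 to 1.96 in the other relapse mice. Without that mouse the relapse minus iCT difference of Phlda3 was -3.57 and its call held. Galr3 stood at 2.95 FPKM in relapse mouse 3, against 2.04 to 2.18 in the others, a small distance at a level where few fragments were counted.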

How the results depend on the processing

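The number of members was 3 at a fold limit of 2 and 19 to 30 under the other pseudocounts, level limits and scalings. Median-of-ratios scaling gave 8 higher and 20 lower members. It kept 18 of the 23 and lost Cpt1a, Hist1h2ag, Hist1h2ah, Sipa1 and 5730508B09Rik. Quantile normalization gave 14 higher and 15 lower, kept 20 and lost Hist1h2ah, S100a10 and 5730508B09Rik. The number was 23 to 86 when single libraries were left out, with 41, 56 and 36 without vehicle mice 2, 4 and 5. It was 86 without iCT mouse 2, 66 higher and 20 lower, and 40 and 37 without relapse mice 1 and 4. Only Phlda3 and Cgnl1 met the rule in all 20 settings, among them the fold limit of 2. Fbp1, 2310001H17Rik, Mogat2, Ctsh, Fgl2 and Smpdl3a left it only at that limit, and Pyhin1 only at a level limit of 10 FPKM. Sipa1 left it without vehicle mouse 1 or relapse mouse 3, 5730508B09Rik without vehicle mouse 1 or iCT mouse 1, and 2310009A05Rik without vehicle mouse 3 or 5 or relapse mouse 2.

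Between relapse and iCT, 603 genes passed with array weights, 236 in a fit of these groups alone and 529 to 1855 with single libraries left out. The count was 529 to 593 without any 1 relapse mouse and 1855 without iCT mouse 3. Members that passed numbered 1 in the fit of these groups alone and 6 to 9 with single libraries left out. Between iCT and vehicle 457 genes passed with array weights and 569 to 2722 with single libraries left out, the highest without iCT mouse 2. Between relapse and vehicle the count was 971 with array weights, 1 without a filter, 3 with length and GC trends removed and 0 to 5 with single libraries left out. The causes were not tested.

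The relapse minus iCT difference of Pyhin1 was -0.08 after quantile normalization. With single libraries left out it was -0.02 to 0.55 for Pyhin1, -0.44 to 0.14 for Cgnl1, -0.07 to 0.88 for 5730508B09Rik and -0.23 to 0.04 for Laptm4b. Of 528 such values over the 23 members, 496 kept their direction and side of the threshold. Of the other 32, 26 were no longer past the threshold, 5 changed sign, and 1, 2310009A05Rik without iCT mouse 2, passed it (1.06, adjusted p = 0.00145).

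Mice share numbers across groups in the titles, but same-numbered libraries did not deviate together (correlations of -0.091 to 0.099), so the mice were not taken as pairs. With a replicate block 372 genes passed between relapse and iCT, 3 of them members, and 197 between iCT and vehicle. Depth limits the values of iCT mouse 1 most, where the median gene at 1 FPKM or more rested on 13.8 implied fragments.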

Other observations

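Among the 157 separated genes under the fold limit, the mitotic kinesin Kif20a was displaced more at day 10, with means of 13, 17.8 and 20.4 FPKM in vehicle, iCT and relapse. Its log2 ratio was 0.42 at day 3 and 0.61 at day 10. The mitotic kinase Plk1 had means of 43.1, 71.1 and 54.9 FPKM. Spc25, also of the list of G2 and mitosis genes, was separated downward, with means of 30.2, 19.7 and 24.3 FPKM. Of the 43 genes of that list tested, 0 were higher and 4 lower at day 3. The cytokine receptor beta chains were separated upward, Csf2rb with means of 25.7, 37.5 and 32.3 FPKM and Csf2rb2 with means of 6.63, 12.6 and 9.45 FPKM. Downward, the macrophage receptor Adgre1 had means of 80.3, 22.3 and 66.8 FPKM and the lectin Clec12a means of 299, 100 and 205 FPKM. Adgre1 went against most of its list: of 18 tissue macrophage genes tested, 11 were higher and 1 lower at day 3. The sterol enzymes Idi1 (33.3, 18.7 and 25.9 FPKM) and Sc5d (19.5, 9.78 and 13.5 FPKM) were separated downward as well. These genes were picked from the lists after their values were seen and are given as a description.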
